A study of Homo sapiens with 4 samples.

Results

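The E2 ubiquitin-conjugating enzymes were taken as the genes whose name starts with UBE2, without UBE2L6 and without names that end in P and a number. The table of 47251 genes held 45 names that start with UBE2, of which 40 were kept and 5 were left out. GENCODE 29 lists 35 of the 40 as protein-coding, and the others as antisense genes or, for UBE2DNL, a transcribed pseudogene. Of the 40, 28 had a mean over the 4 libraries of at least 1 FPKM and were tested, and 12 were below that level. FPKM stands for fragments per kilobase of transcript in proportion to the mapped fragments of the library, a level that is scaled for length. Levels of different genes can thus be set side by side, but only roughly. The length used for each gene is not stated, and a listed transcript can exceed the value of its gene. The unit is inferred from the values, since the tables do not name it.

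RNA was sequenced from AGS cells, a line that was derived from an adenocarcinoma of the human stomach. The sh-MFAP2 group (replicates 1 and 2) carried a lentiviral short hairpin RNA (shRNA) against MFAP2, which encodes a glycoprotein of extracellular microfibrils. The control group (replicates 1 and 2) carried a lentivirus with a scrambled shRNA, and both groups had been selected with puromycin. The sh-MFAP2 libraries come from 1 hairpin, and nothing in the labels says that the 2 libraries of a group came from separate cultures, so that p-values measure only the spread between these libraries. MFAP2 itself was at 0 FPKM in each sh-MFAP2 library and at 0.0116 and 0.0138 FPKM in the controls, too low to check the labels of the libraries. The question was whether the RNA levels of the E2 enzymes differed between cells with and without the hairpin against MFAP2.

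Ubiquitin is attached to proteins by a relay of 3 kinds of enzyme. An E1 enzyme activates ubiquitin, an E2 enzyme takes it over on a cysteine of its active site, and an E3 ligase brings the loaded E2 to the substrate. The E2 often decides which kind of ubiquitin chain is built, and therefore whether the substrate goes to the proteasome or takes part in signaling. Some members of the family carry SUMO, NEDD8 or another relative of ubiquitin, and others have lost the cysteine and act as partners of an active E2.

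The active-site cysteine is shown here for the UBE2D genes and UBE2E1. UBE2D1 and UBE2E1 are among the 3 members with an unadjusted p under 0.05 (limma), and UBE2D2, UBE2D3 and UBE2D4 are the nearest relatives of UBE2D1. UBE2O, also among those 3, is not shown and held neither of the codon patterns described below. Each run is coding sequence of the most abundant protein-coding transcript, read 5′ to 3′ from GENCODE 29 on GRCh38, with the cysteine codon in capitals. It spans 63 bases within 1 exon, from 15 bases before the codon of the conserved histidine to 15 bases after the cysteine codon.
UBE2D1: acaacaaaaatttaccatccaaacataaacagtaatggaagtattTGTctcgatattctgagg
UBE2D2: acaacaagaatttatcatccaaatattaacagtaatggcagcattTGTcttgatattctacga
UBE2D3: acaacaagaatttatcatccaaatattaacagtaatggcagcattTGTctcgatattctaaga
UBE2D4: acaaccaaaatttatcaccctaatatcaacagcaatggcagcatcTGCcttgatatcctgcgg
UBE2E1: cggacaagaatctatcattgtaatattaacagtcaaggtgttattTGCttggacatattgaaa

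The UBE2D1 window lies in exon 5 at chr10:58364780-58364842 (plus strand), and the UBE2D2 window in exon 5 at chr5:139614870-139614932 (plus strand). The UBE2D3 window lies in exon 6 at chr4:102801488-102801550 (minus strand), the UBE2D4 window in exon 5 at chr7:43948641-43948703 (plus strand), and the UBE2E1 window in exon 5 at chr3:23889121-23889183 (plus strand). The capitals mark codon 85 in the UBE2D genes and codon 131 in UBE2E1. The UBE2D2 and UBE2D3 windows differed at 2 of the 63 bases, whereas UBE2D1 differed from UBE2D3 at 8 and from UBE2D2 at 10. The UBE2E1 window differed from those of the UBE2D genes at 21 to 26 bases. Among the 34 members with a coding transcript in GENCODE 29, 21 held a codon run for histidine, proline and then asparagine, histidine or glutamine, followed 7 to 10 codons later by cysteine. A further 3, all of the UBE2E genes, held cysteine in place of the proline, and the other 10 held neither pattern.

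Sequence shared with other genes limits how well reads can be assigned. None of the 31-base words of the main UBE2D1 transcript occurred in a transcript of another gene in GENCODE 29, and the same held for UBE2O, UBE2E1 and UBE2T. For UBE2V1, 98.0% of the words also occurred in other genes, mostly the read-through gene TMEM189-UBE2V1, and for UBE2F 78.4%, mostly the read-through gene UBE2F-SCLY, so that the values of UBE2V1 and UBE2F are uncertain. The share was above 10% for 7 of the 28 members, including UBE2S, UBE2E3, UBE2M, UBE2L3 and UBE2N.

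The low values of the tables point to about 54700000 to 75000000 reads per library, if 1 step between low values stands for 1 read. Only 59.7% to 61.2% of low values fell on whole steps (within 0.05 of a step), against 10% by chance, so that reads were not recovered gene by gene. On this scale the smallest value among the 28 members, UBE2F in sh-MFAP2 replicate 2, stands for about 284 reads. The epithelial markers EPCAM, KRT8, KRT18 and KRT19 were listed at 193 to 803 FPKM, whereas CDH1, which encodes E-cadherin, was at 0.584 to 1.25 FPKM. Of the markers of other cells, COL1A1 was at 2.27 and 2.07 FPKM under sh-MFAP2 and 4.36 and 4.92 FPKM in controls, and CD68 was at 3.13 and 3.12 FPKM against 7.85 and 7.20 FPKM. The 3 fibroblast markers summed to 2.09 to 2.28 FPKM under sh-MFAP2 and 4.38 to 4.94 FPKM in controls, nearly all of it COL1A1. The 3 leukocyte markers summed to 3.13 to 3.16 FPKM against 7.21 to 7.86 FPKM, nearly all of it CD68. The sums thus restate the differences of these single genes. COL1A2, PDGFRB, PTPRC, CD3E, PECAM1 and VWF were at or near 0 in all 4 libraries. The part of these differences in the results for the E2 genes was not tested. All libraries are of the AGS line, and bulk RNA does not show which cells the COL1A1 and CD68 RNA came from.

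UBE2C, UBE2S and UBE2T had the highest mean gene values of the family in AGS cells. UBE2C, the E2 that starts ubiquitin chains on substrates of the anaphase-promoting complex, was at 158 and 174 FPKM under sh-MFAP2 and at 157 and 142 FPKM in controls. UBE2S, which extends those chains, was at 76.5 and 113 FPKM against 85.9 and 87.9 FPKM. UBE2T, the E2 of the Fanconi anemia pathway, was at 85.5 and 96.0 FPKM against 78.4 and 69.4 FPKM. These 3 genes held 41.8% of the summed mean FPKM of the 28 members, by the gene values. The order and the share from the listed transcripts would differ. ENST00000371674 of UBE2V1 alone was at 72.1 to 80.9 FPKM over the libraries, above the gene value of UBE2V1 in each.

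By mean FPKM over the 4 libraries the order below them was UBE2M, UBE2E1, UBE2V1, UBE2L3, UBE2D2, UBE2Q1, UBE2N, UBE2D3, UBE2K, UBE2R2, UBE2A, UBE2E3, UBE2J1, UBE2Z, UBE2B, UBE2J2, UBE2H, UBE2Q2, UBE2V2, UBE2G2, UBE2D1, UBE2O, UBE2G1 and UBE2F. The means ran from 157.8 FPKM for UBE2C to 2.61 FPKM for UBE2F, a 60.4-fold range. This order holds for the gene values only, and rests on the length used for each gene, which is not stated. The ranges over the 4 libraries overlapped for 23 of the 27 pairs of neighbours in this order, which therefore cannot be ranked beyond their spread. The pairs whose ranges stood apart included UBE2C above UBE2S, UBE2T above UBE2M, and UBE2Q1 above UBE2N.

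**Figure D1:**
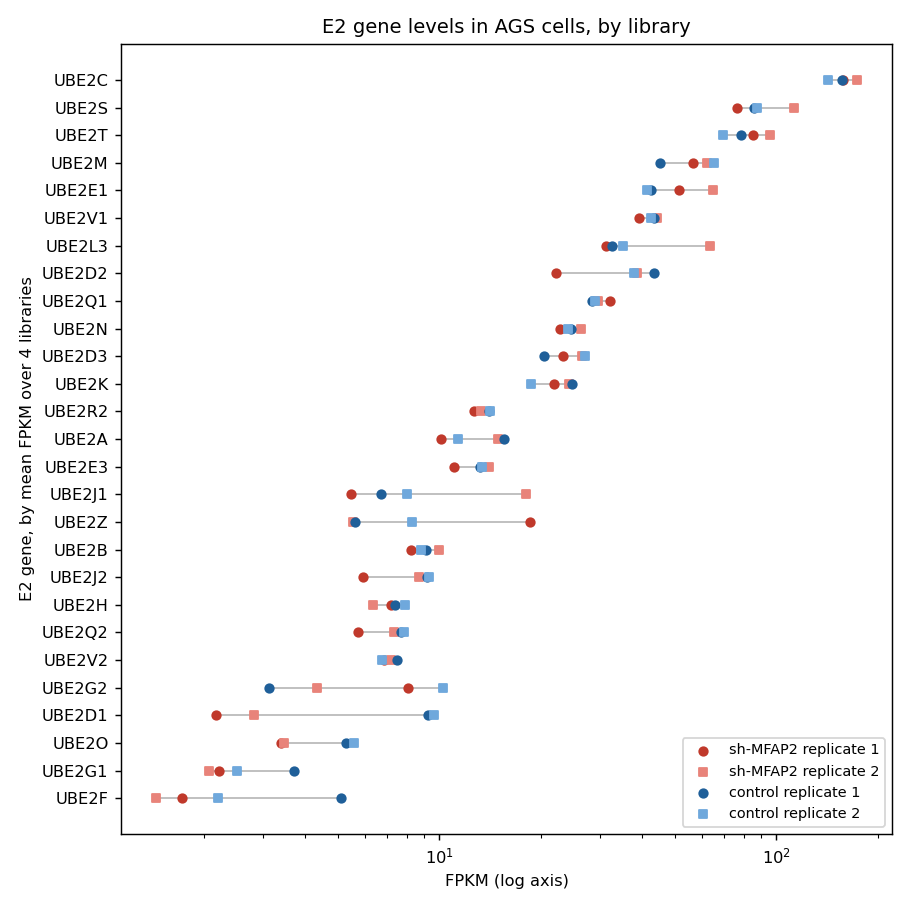
FPKM (log axis) of 27 of the 28 E2 genes tested, ordered by mean, with 1 point per library (red for sh-MFAP2, blue for control; circles for replicate 1, squares for replicate 2) and a grey line over their range. UBE2C is highest at 142 to 174 FPKM, and the points of UBE2D1 split into 2.17 and 2.82 FPKM under sh-MFAP2 against 9.28 and 9.67 FPKM in controls.

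Between sh-MFAP2 and control cells, none of the 28 E2 genes tested passed the thresholds of p under 0.01 and adjusted p under 0.05. With limma and Benjamini-Hochberg adjustment over 9873 genes, 27 genes (0.273%) were called in all. UBE2D1 came nearest, as the only member with an adjusted p under 0.1, which 46 genes (0.466%) reached. At an unadjusted p under 0.01 there were 2 members, UBE2D1 and UBE2O, beside 3% of all genes, and at an unadjusted p under 0.05 there were 3 members (10.7%), with UBE2E1 added, beside 12.3% of all genes. The share of E2 genes was thus near that of all genes at the last of these thresholds.

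The direction was evenly divided, with 14 members higher and 14 lower in sh-MFAP2, beside 4151 higher and 5722 lower among all genes tested. The median log2 fold change of (FPKM + 1) over the members was -0.0016, compared with -0.05 over all genes tested, and 15 of the 28 lay within 0.2 of 0. The groups did not overlap for 12 members (42.9%), compared with 48.9% of all genes tested. In 4 of them the sh-MFAP2 libraries both exceeded the controls (17.5% of all genes), namely UBE2C, UBE2T, UBE2E1 and UBE2Q1, and in 8 both were below (31.4% of all genes), namely UBE2D1, UBE2O, UBE2F, UBE2G1, UBE2J2, UBE2Q2, UBE2H and UBE2R2. With 2 libraries in each group the smallest two-sided p of an exact permutation test is 0.333, and all p-values therefore rest on the variance that limma shares between genes.

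**Figure D2:**
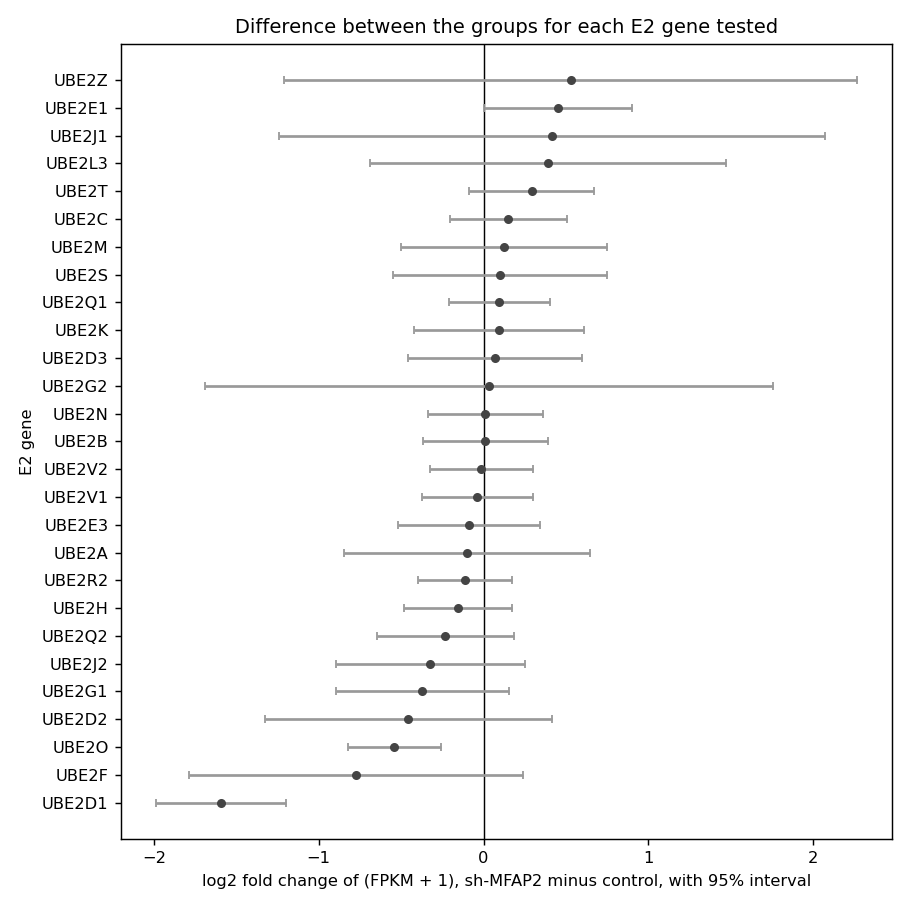
Log2 fold change of (FPKM + 1), sh-MFAP2 minus control, for 27 of the 28 E2 genes tested, with 95% intervals from limma before adjustment for multiple tests. UBE2D1 stands apart at -1.59, the intervals of UBE2D1, UBE2O and UBE2E1 leave out 0, and those of the other 24 include it.

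UBE2D1 had the largest difference of the family. It belongs to the UBE2D enzymes, which work with many E3 ligases and whose members largely share their partners. It was at 2.17 and 2.82 FPKM under sh-MFAP2, compared with 9.28 and 9.67 FPKM in the controls. Both sh-MFAP2 values lay far below both controls, and the libraries of a group differed little. The mean was 3.80-fold higher in controls, with a log2 fold change of -1.59 (SE 0.139, 95% interval -1.98 to -1.20), but the adjusted p was 0.0983 (limma). The gene lies at chr10:58334975-58370753 of GRCh38 on the plus strand.

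For the nearest relatives of UBE2D1 the groups overlapped. UBE2D2 was at 22.2 and 38.6 FPKM under sh-MFAP2 and at 43.4 and 37.9 FPKM in controls, with sh-MFAP2 replicate 1 alone below the rest. UBE2D3 was at 23.2 and 26.5 FPKM against 20.5 and 27.1 FPKM. The log2 fold changes were -0.46 (SE 0.306, adjusted p = 0.563, limma) for UBE2D2 and 0.07 (SE 0.185, 95% interval -0.46 to 0.60) for UBE2D3. UBE2D1 therefore made up 4.56% and 4.15% of the summed FPKM of the 3 genes in sh-MFAP2 and 12.7% and 12.9% in controls. These shares rest on the gene values, and shares from the listed transcripts would differ. In sh-MFAP2 replicate 1, ENST00000453744 of UBE2D3 alone was at 44.8 FPKM, above the gene value of 23.2 FPKM. UBE2D4, a further relative, was below the level tested, at no more than 0.430 FPKM. The differences between UBE2D1 and its relatives were not tested against each other.

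Of the other E2 enzymes with many partners, UBE2E1 was higher in sh-MFAP2, at 51.4 and 65.1 FPKM compared with 42.6 and 41.5 FPKM in controls. Its log2 fold change was 0.45 (SE 0.158), and the adjusted p was 0.404 (limma). UBE2E3 had overlapping groups, at 11.1 and 14.0 FPKM under sh-MFAP2 and 13.2 and 13.4 FPKM in controls. UBE2L3, which serves ligases that pass ubiquitin through a cysteine of their own, such as the linear chain complex, was at 31.2 and 63.4 FPKM under sh-MFAP2 and at 32.6 and 35.0 FPKM in controls. Here sh-MFAP2 replicate 2 stood above the other 3 libraries, so that the difference was carried by 1 library.

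**Figure D3:**
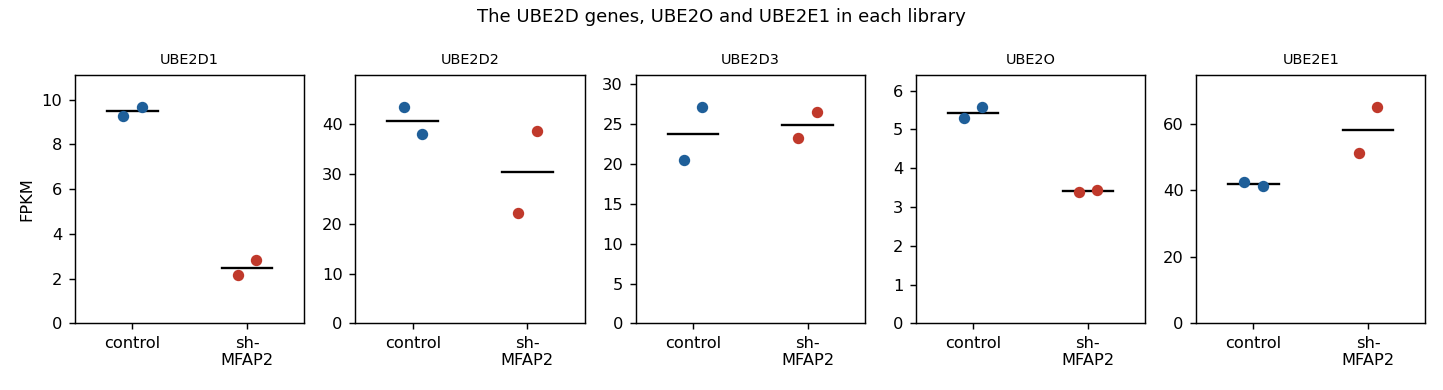
FPKM of UBE2D1, UBE2D2, UBE2D3, UBE2O and UBE2E1 in each library (points; blue for control, red for sh-MFAP2) with the group mean (black line), each panel starting at 0 with its own scale. The groups stand apart for UBE2D1, UBE2O and UBE2E1 and overlap for UBE2D2 and UBE2D3.

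UBE2O, a large enzyme that can act as both E2 and E3, was at 3.39 and 3.45 FPKM under sh-MFAP2 and at 5.29 and 5.58 FPKM in controls. The libraries of each group lay close together and the groups did not overlap. The log2 fold change was -0.54 (SE 0.0992), with an adjusted p of 0.302 (limma). UBE2H, the E2 of the CTLH ligase complex, was at 7.19 and 6.36 FPKM under sh-MFAP2 and 7.38 and 7.92 FPKM in controls, a log2 fold change of -0.15 (SE 0.116, adjusted p = 0.591, limma). UBE2Q2 was at 5.74 and 7.31 FPKM against 7.71 and 7.87 FPKM, with a log2 fold change of -0.23 (SE 0.146, adjusted p = 0.547, limma). UBE2Q1, its paralog, was at 32.0 and 29.5 FPKM against 28.4 and 29 FPKM, a difference of 0.10 on the log2 scale. None of these 4 passed the test.

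The mitotic and Fanconi E2 genes had slightly higher means in sh-MFAP2, none of which passed the test. UBE2T had a log2 fold change of 0.29 (SE 0.133, adjusted p = 0.454, limma), UBE2C of 0.15 (SE 0.125) and UBE2S of 0.10 (SE 0.228). Of 10 other mitotic genes that had been set beside them, 9 were lower in sh-MFAP2, beside 5722 of all 9873 genes tested. Their median log2 fold change was -0.26, compared with -0.05 over all genes tested. The 3 with the smallest p were TOP2A at 78.4 and 64.9 FPKM under sh-MFAP2 and 101 and 102 FPKM in controls, CENPF at 22.2 and 23.1 FPKM against 28.7 and 29 FPKM, and CCNA2 at 35.5 and 38.5 FPKM against 45.9 and 46.6 FPKM. Their adjusted p ran from 0.382 to 0.401 (limma), so that none of the 10 was called.

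The E2 enzymes of the endoplasmic reticulum and of Lys48 chains, the chains that mark proteins for the proteasome, did not pass the test in any of 6 cases, and UBE2J1 and UBE2G2 varied widely between replicates. UBE2G1 was at 2.22 and 2.07 FPKM under sh-MFAP2 and 3.71 and 2.51 FPKM in controls (log2 fold change -0.37, SE 0.185, adjusted p = 0.477, limma). UBE2J2, an enzyme anchored in the membrane of the endoplasmic reticulum, was at 5.93 and 8.71 FPKM against 9.19 and 9.32 FPKM (log2 fold change -0.32, SE 0.202, adjusted p = 0.545, limma). In UBE2J1, its counterpart, sh-MFAP2 replicate 2 stood alone at 18.1 FPKM, with 5.47 FPKM under sh-MFAP2 replicate 1 and 6.73 and 7.99 FPKM in controls. UBE2G2, which acts in the disposal of misfolded proteins, was at 8.09 and 4.34 FPKM under sh-MFAP2 and at 3.11 and 10.3 FPKM in controls, so that each group spanned much of the range of the other. UBE2K and UBE2R2 varied less, from 18.7 to 24.8 FPKM and from 12.7 to 14.2 FPKM.

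The E2 enzymes of Lys63 chains, which act in DNA repair and signaling, lay close together in the 4 libraries, with a summed level of 68.9 to 78.0 FPKM. UBE2N, the catalytic member, was at 22.8 and 26.3 FPKM under sh-MFAP2 and 24.5 and 24.1 FPKM in controls. Its partners without an active cysteine, UBE2V1 and UBE2V2, were at 39.3 to 44.4 FPKM and at 6.75 to 7.47 FPKM over the 4 libraries. The 3 log2 fold changes lay between -0.04 and 0.01, and the 95% interval for UBE2N ran from -0.34 to 0.36. The RAD6 homologs UBE2A and UBE2B, which act on histone H2B and in the tolerance of DNA damage, had overlapping groups, at 10.1 to 15.5 FPKM and 8.24 to 9.98 FPKM.

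Among the enzymes that carry relatives of ubiquitin, UBE2F had the largest difference. UBE2F and UBE2M both pass NEDD8 to cullins. UBE2F was at 1.72 and 1.44 FPKM under sh-MFAP2 and at 5.09 and 2.20 FPKM in controls, with control replicate 1 apart from the other 3 libraries. The log2 fold change was -0.77 (SE 0.356), with an adjusted p of 0.458 (limma). UBE2M was at 56.7 and 62.4 FPKM against 45.3 and 65.5 FPKM. UBE2Z, which can take up both ubiquitin and its relative FAT10 from UBA6, was at 18.6 FPKM under sh-MFAP2 replicate 1 and at 5.54 to 8.30 FPKM in the other 3 libraries.

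Replicates of a group differed more than 2-fold for 5 of the 28 members (17.9%), compared with 12.2% of all genes tested, where no fold was formed for genes listed at 0 in any library. These were UBE2L3, UBE2J1 and UBE2Z in sh-MFAP2 and UBE2G2 and UBE2F in controls. The high library was sh-MFAP2 replicate 2 for UBE2L3 and UBE2J1 and sh-MFAP2 replicate 1 for UBE2Z, so that no library was high for all of them.

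**Figure D4:**
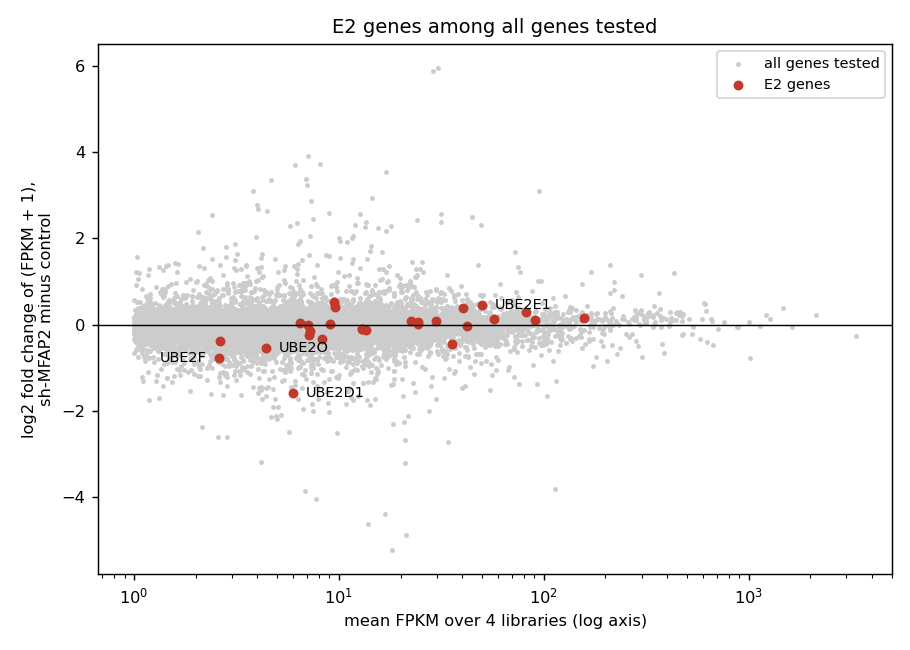
Log2 fold change of (FPKM + 1), sh-MFAP2 minus control, against mean FPKM over 4 libraries (log axis) for the 9873 genes tested (grey) and 27 of the 28 E2 genes (red). The E2 genes lie between -1.59 and 0.53, with UBE2D1 lowest, whereas all genes range from -5.22 to 5.95.

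The 12 members below the level tested were listed at low values throughout. UBE2W reached at most 0.713 FPKM, UBE2D4 0.430, UBE2Q1-AS1 0.257, UBE2E1-AS1 0.226, UBE2R2-AS1 0.0769, UBE2F-SCLY 0.0732, UBE2Q2L 0.0510, UBE2U 0.0199 and UBE2E2 0.00863 FPKM. UBE2DNL, UBE2E2-AS1 and UBE2QL1 were listed at 0 in all 4 libraries. UBE2E1-AS1, UBE2Q1-AS1 and UBE2R2-AS1 overlap the E2 genes they are named after on the opposite strand, and nothing states that strand was used in making the values, so that reads of these pairs cannot be told apart. Of the 5 names left out, UBE2L6, the E2 of the interferon-induced modifier ISG15, was at 8.66 and 26.8 FPKM under sh-MFAP2. In controls it was at 6.27 and 7.17 FPKM (adjusted p = 0.491, limma). Both sh-MFAP2 libraries exceeded both controls, as for 17.5% of all genes tested, and sh-MFAP2 replicate 2 was by far the highest.

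Transcript values were read beside the gene values, although they come from the same libraries and are not independent of them. The 2 kinds of value do not always add up. For UBE2E1, ENST00000306627 alone was above the gene value in every library. Of 237 listed transcripts of the tested members, 83 reached a mean of 1 FPKM. None of these was called, nor was any of the 22312 transcripts tested (0%), with 10 member transcripts at an unadjusted p under 0.05 beside 7.64% of all transcripts. UBE2D1 was carried by ENST00000373910, at 2.40 and 3.01 FPKM under sh-MFAP2 and at 11.0 and 10.3 FPKM in controls (log2 fold change -1.65, SE 0.189, adjusted p = 0.243, limma). It made up 80.3% to 89.3% of the UBE2D1 sum in every library. The other UBE2D1 transcript with at least 10% of the sum, ENST00000615793, was at 0.403 and 0.668 FPKM against 1.19 and 2.37 FPKM, also lower in both sh-MFAP2 libraries.

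For UBE2E1 the main transcript and the shorter ones differed. ENST00000306627 was at 73.7 and 67.2 FPKM under sh-MFAP2 and at 73.2 and 71.3 FPKM in controls, a log2 fold change of -0.04 (SE 0.153). ENST00000424381 was at 15.7 and 22.3 FPKM against 7.15 and 5.85 FPKM, and ENST00000346855 at 12.9 and 26.1 FPKM against 3.65 and 4.31 FPKM. Both were above the controls in both sh-MFAP2 libraries, with log2 fold changes of 1.40 (SE 0.256) and 1.97 (SE 0.394) and adjusted p of 0.397 and 0.440 (limma). ENST00000475680, a processed transcript, was at 3.19 and 15.3 FPKM against 2.15 and 1.54 FPKM. The main transcript thus held 65.8% and 44.0% of the UBE2E1 sum in sh-MFAP2 and 80.0% and 79.9% in controls, and a difference in the use of transcripts was not tested.

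UBE2O and UBE2T each had 1 main transcript that followed the gene. ENST00000319380 of UBE2O was at 3.88 and 3.84 FPKM under sh-MFAP2 and 5.91 and 6.35 FPKM in controls, and the retained intron ENST00000586505 stayed at or below 0.543 FPKM. ENST00000367274 of UBE2T was at 90.4 and 104 FPKM against 84.3 and 74.3 FPKM. The UBE2F transcripts varied between libraries. ENST00000272930 was listed at 8.12 FPKM in control replicate 1 and at 0 in the other 3 libraries, while ENST00000409633 was at 3.20 and 2.98 FPKM under sh-MFAP2 and 0.517 and 1.44 FPKM in controls. The remaining 4 UBE2F transcripts with at least 10% of the sum, ENST00000409953, ENST00000416292, ENST00000409332 and ENST00000448502, were at 3.43 FPKM or less.

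Transcripts of UBE2D3, which were chosen after their values were seen, went in opposite directions. ENST00000453744 was at 44.8 and 45.7 FPKM under sh-MFAP2 and at 18.2 and 33.7 FPKM in controls, whereas ENST00000394803 was at 5.09 and 10.3 FPKM against 18.6 and 21.0 FPKM. In both cases the groups did not overlap, as for 48.9% of all genes tested. The share over all transcripts was not computed. The adjusted p was 0.677 and 0.596 (limma), while the gene value of UBE2D3 was nearly level, as given above.

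**Figure D5:**
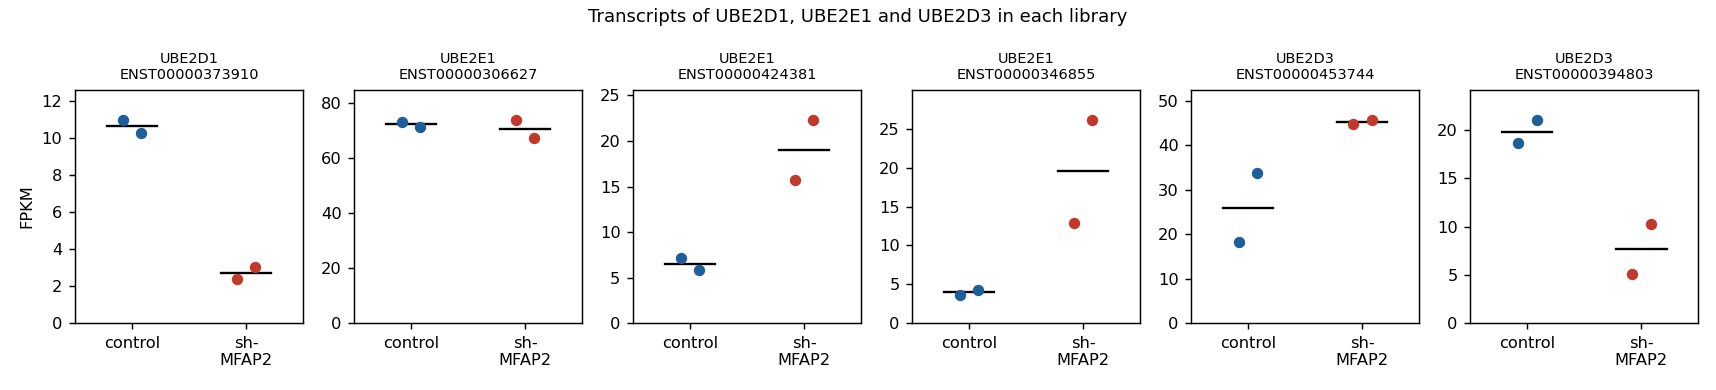
FPKM of transcripts of UBE2D1, UBE2E1 and UBE2D3 in each library (points; blue for control, red for sh-MFAP2) with the group mean (black line), each panel starting at 0 with its own scale. ENST00000306627 of UBE2E1 is level at 67.2 to 73.7 FPKM, while the groups stand apart in the other 5 panels. Groups also stood apart for 48.9% of all genes tested, and the share over all transcripts was not computed.

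The enzymes that load and use the E2s were taken from lists of E1 enzymes, of E2-like genes under other names and of E3 ligases with a known E2 partner. None of their 49 tested genes was called. Of 8 E1 genes tested, 7 were lower in sh-MFAP2, and the median log2 fold change was -0.16. Among all 9873 genes tested 5722 were lower, with a median of -0.05. UBA6, the E1 that loads UBE2Z and also activates ubiquitin, was at 5.08 and 2.73 FPKM under sh-MFAP2 and 9.96 and 9.26 FPKM in controls (log2 fold change -1.16, SE 0.277, adjusted p = 0.349, limma). UBA2 and SAE1, the subunits of the SUMO E1, were at 77.2 and 69.0 FPKM against 99.6 and 88.0 FPKM and at 60.2 and 55.0 FPKM against 67.3 and 67.4 FPKM.

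Of 7 tested E2-like genes under other names, 2 were higher and 5 lower. CDC34, an E2 of the SCF ligases, was at 29.3 and 36.3 FPKM under sh-MFAP2 and 15.7 and 13.7 FPKM in controls, so that each sh-MFAP2 value exceeded each control value. Its log2 fold change was 1.10 (SE 0.160, adjusted p = 0.238, limma), in the opposite direction to UBE2D1. BIRC6, a very large enzyme that restrains apoptosis, was at 4.07 and 3.83 FPKM against 4.92 and 5.57 FPKM, and UFC1, the E2 of the modifier UFM1, at 21.7 and 33.5 FPKM against 16.6 and 17.7 FPKM.

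Of 35 listed E3 ligases and partners, 34 were tested, with 15 higher, 19 lower and a median log2 fold change of -0.02. At an unadjusted p under 0.05 there were 5 (14.7%), beside 12.3% of all genes tested. PIAS3, a SUMO ligase, was at 5.69 and 5.78 FPKM under sh-MFAP2 and at 9.33 and 9.57 FPKM in controls (log2 fold change -0.63, SE 0.0975, adjusted p = 0.254, limma). RBCK1, a subunit of the linear chain ligase that uses UBE2L3, was at 16.5 and 16.8 FPKM against 12.5 and 11.3 FPKM. XIAP, an inhibitor of caspases and an E3 ligase, was at 3.05 and 3.39 FPKM against 4.26 and 4.22 FPKM.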

How the data were processed

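RNA of 4 AGS libraries was sequenced. The deposited gene and transcript tables name no unit, and their values were read as FPKM made by the authors, since they are not whole numbers and sum to different totals. The build per the submitters' processing notes is hg38, and the aligner, the program behind the values and the annotation are not given in the sources used here. Annotation and sequences came from GENCODE 29 on GRCh38, in which all 40 members were found by Ensembl identifier. The log2(FPKM + 1) values of genes averaging at least 1 FPKM were compared by lmFit and eBayes (variance trend) of limma 3.58.1 in R 4.3.3, with Benjamini-Hochberg adjustment over 9873 genes. The pseudocount understates changes of low genes. Calls needed p under 0.01 and adjusted p under 0.05, the thresholds of the study's methods. Samples were grouped by their labels. The fit was also run on artificial values for 9873 genes, 200 of which were given a log2 fold change of size 2. It called 150 of these 200 (75%), all with the right sign, and 5 unchanged genes. True differences of that size can thus be missed by these calls. The data themselves gave only 27 calls, so that the adjustment was stricter there and 75% may be too high for them.

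Members, lists and tests were chosen with earlier results of these data known. Full statistics are given for the 10 members with the smallest p, transcripts for the 5 with the smallest p, and up to 3 genes per partner list. Depth is inferred, and FPKM gives no counting interval. Filters, pseudocount, scaling, block, variance model, thresholds and left-out libraries were varied. The result of 1 member is not reported here.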

Additional observations from a re-analysis of the deposited data

How the results depend on the processing

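No E2 gene, no partner gene and no E2 transcript was called under any filter, pseudocount, scaling or variance model. The alternatives for partner genes and transcripts were chosen after seeing the data. The block and the left-out libraries cannot bear on this, since their fits called no gene at all. Nor can the transcripts under the settings used above, where none of all those tested was called. Other thresholds gave 2 E2 genes (p under 0.01), 3 (p under 0.05) and 1 (adjusted p under 0.1), with 296, 1214 and 46 genes in all. The 27 genes called became 6 with no filter, 9 at a mean of at least 5 FPKM and 0 without any single library (553 to 2145 at an unadjusted p under 0.05, limma). With the replicate number as a block 0 were called (722 at an unadjusted p under 0.05, limma). Same-numbered libraries deviated with a correlation of -0.057, so little deviation was shared. Whether they were prepared as pairs is not stated, and this value cannot settle it. UBE2D1 ranged from -1.90 to -1.46, with adjusted p (limma) of 0.0865 to 0.360. The 10 members with the smallest p kept their direction under these alternatives, but single libraries moved 7 of them by over 1.5 times. Without sh-MFAP2 replicate 1 the log2 fold change was -0.078 for UBE2J2, -0.080 for UBE2Q2 and -0.070 for UBE2D2, and without sh-MFAP2 replicate 2 it was -0.57, -0.38 and -0.84, with 0.29 for UBE2E1 and -0.078 for UBE2H. UBE2F was at -0.31 and UBE2G1 at -0.16 without control replicate 1, and at -1.24 and -0.59 without control replicate 2. The median over members lay between -0.12 and 0.044 without single libraries, lowest without sh-MFAP2 replicate 2.

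Of 321 member values under alternatives 25 changed sign, in 14 genes, and the cause was not tested. Without single libraries the log2 fold changes ran from -0.11 to 0.89 for UBE2L3, -0.26 to 1.32 for UBE2Z, -0.37 to 1.20 for UBE2J1, -0.24 to 0.070 for UBE2E3, -0.14 to 0.39 for UBE2M, -0.10 to 0.29 for UBE2K, -0.18 to 0.38 for UBE2S, -0.36 to 0.16 for UBE2A, -0.12 to 0.26 for UBE2D3, -0.12 to 0.050 for UBE2V1, -0.078 to 0.050 for UBE2V2, -0.089 to 0.11 for UBE2N, -0.11 to 0.14 for UBE2B and -0.69 to 0.76 for UBE2G2. Summed transcripts gave -0.13 for UBE2K and -0.19 for UBE2D3. Median-of-ratios scaling gave 0.033 for UBE2V1 and 0.049 for UBE2V2, and quantile normalization 0.057 for UBE2V2.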

Other observations

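Further E2 transcripts had an unadjusted p under 0.05; those given here were chosen after their values were seen, and none was called. ENST00000595957 of UBE2M was at 14.8 and 17.0 FPKM under sh-MFAP2 and at 9.21 and 6.73 FPKM in controls (adjusted p = 0.553, limma). ENST00000330942 of UBE2G2 was at 1.67 and 5.92 FPKM under sh-MFAP2, and was listed at 0 and 0.327 FPKM in controls (adjusted p = 0.608, limma). ENST00000394801 of UBE2D3 was at 8.32 and 10.1 FPKM against 16.6 and 15.3 FPKM (adjusted p = 0.568, limma).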
